A study of Mus musculus with 16 samples.

Results

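Slurp1, Slurp2, Ly6d, Lypd3, Lypd5 and Ly6g6c are 6 genes of the Ly6/uPAR family, whose proteins share a disulphide-bonded fold with finger-like loops and which mark the upper layers of stratified epithelia. They were taken as a named set from the 23930 targeted transcripts counted in whole mouse skin, and each was matched to 1 target by its RefSeq accession. Another 33 targets belonged to relatives of the same family. The 6 genes were picked with their levels across the study's groups already known, so their levels and fitted differences are a description, with no p-value.

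The proteins fall into a secreted and a membrane-bound kind. Slurp1 and Slurp2 encode small secreted proteins that modulate nicotinic acetylcholine receptors on keratinocytes. Loss of SLURP1 causes the palmoplantar keratoderma Mal de Meleda in humans, and mice without Slurp1 or Slurp2 also develop thickened paw skin. Ly6d and Lypd3 encode proteins held at the cell surface by a glycosylphosphatidylinositol (GPI) anchor. Ly6d is a surface antigen of keratinocytes and of early B-lineage cells, and Lypd3, also called C4.4A, lies on suprabasal keratinocytes. Lypd5 encodes a GPI-anchored relative that in human epidermis marks the granular layer. Ly6g6c belongs to a small group of Ly6 genes within the major histocompatibility complex.

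The study asked how loss of Zc3h12a in keratinocytes, in myeloid cells or in both alters the skin transcriptome. Zc3h12a encodes Mcpip1, also called Regnase-1, an endoribonuclease that degrades messenger RNAs of inflammatory genes. All 16 mice were 12 weeks old and carried floxed Zc3h12a alleles, written Zc3h12a(loxP/loxP), and each of the 4 groups had 4 mice numbered 1 to 4. EKO mice also carried Krt14Cre(Tg/Wt), in which the keratin 14 promoter of basal keratinocytes drives Cre. MKO mice carried LysMCre(Tg/Wt), in which the lysozyme M promoter of myeloid cells drives Cre. EMdKO mice carried both transgenes, and Control mice had the floxed alleles with no Cre. The skin was lysed whole, so each library also held RNA of cells in which the gene was not targeted. No group carried a Cre transgene with unfloxed alleles, and an effect of a transgene itself cannot be told apart from loss of Zc3h12a. Each mouse gave 1 library, so the spread within a group is that between mice.

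Libraries came from a panel with 1 amplicon per target, and held 6962474 to 12086327 counts. Values are given as CPM, in which each count is scaled to its library's normalized total. An amplicon panel gives no level per length, so levels are compared between groups and not between genes. The Zc3h12a target itself had 11.7, 7.07, 7.40 and 8.41 CPM in EKO mice 1 to 4 and 17.1, 35.0, 29.2 and 24.8 CPM in MKO mice. It had 5.47, 5.69, 5.71 and 4.41 CPM in EMdKO mice, against 19.4, 21.7, 30.3 and 27.4 CPM in Control mice. Every library of the EKO and EMdKO groups lay below every Control library, while the MKO and Control ranges overlapped. The position of the amplicon relative to the deleted part was not given in the sources used here, so these values bear only in part on the labels.

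EKO mouse 1 stood apart from the other 3 EKO mice. Krt1, a suprabasal keratin, had 458 CPM in it and 3890 to 5036 CPM in EKO mice 2 to 4, and Il1f6, which encodes the cytokine IL-36 alpha, had 0.516 CPM in it and 79.3 to 92.4 CPM in the others. Its hair shaft markers were also the highest of the EKO group, with a mean log2 CPM of 7.12 over 17 genes against 1.25 to 5.35 in the others. So were its summed skeletal muscle markers, at 57807 CPM against 25872 to 40258 CPM. Results of the 6 genes that rest on the EKO group are therefore given with and without this library.

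Of the 6 genes, Slurp2 had the highest ratio of its highest to its lowest library. It had 12.7, 328, 195 and 284 CPM in EKO mice 1 to 4, and 1.57, 11.6, 10.1 and 8.66 CPM in MKO mice. In EMdKO mice it had 204, 39.0, 283 and 100.5 CPM, against 19.4, 11.7, 14.9 and 12.5 CPM in Control mice. All 4 EMdKO libraries and EKO mice 2 to 4 were above every Control and MKO library, and EKO mouse 1 lay inside the Control range. Every MKO library was below every Control library, although MKO mouse 2 and Control mouse 2 were nearly equal. Group means were 205 ± 140 CPM in EKO, 8.0 ± 4.45 in MKO, 157 ± 108 in EMdKO and 14.6 ± 3.5 in Control (SD, n = 4 each). By level, EKO came first, then EMdKO, Control and MKO. The EMdKO mean was below the EKO mean by less than the SD of either group, and the MKO mean was below the Control mean by more than either SD.

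The fitted log2 fold change of Slurp2, with its standard error, was 3.81 ± 0.79 in EKO against Control and 3.42 ± 0.78 in EMdKO against Control. It was -0.86 ± 0.75 in MKO against Control. EMdKO skin differed from MKO skin by 4.28 ± 0.81 and from EKO skin by -0.39 ± 0.70. The means of both groups with Krt14Cre thus stood above those of both groups without it, by 14.0 times for EKO over Control and 19.6 times for EMdKO over MKO. With EKO mouse 1 left out, the EKO mean was 269 ± 67.8 CPM (SD, n = 3), or 18.4 times the Control mean, and the log2 fold change was 4.20 ± 0.59. The EMdKO mean was then below the EKO mean by more than the SD of either group, with a fitted difference of -0.78 ± 0.53, and the ranges still overlapped. The lowest library, MKO mouse 1, held only 10 Slurp2 counts, whose exact Poisson interval at the 95% level is 4.8 to 18.4 counts or 0.752 to 2.88 CPM. That interval covers counting error only.

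Slurp1, the other secreted member, followed the same order of groups at a smaller range. It had 6.50, 62.2, 41.6 and 53.2 CPM in EKO mice 1 to 4, and 6.90, 10.4, 6.32 and 4.14 CPM in MKO mice. In EMdKO mice it had 33.5, 12.6, 31.2 and 27.0 CPM, against 8.17, 11.9, 8.97 and 10.4 CPM in Control mice. EKO mice 2 to 4 and all EMdKO mice lay above every Control mouse, EMdKO mouse 2 by a small margin. EKO mouse 1 was below all Control mice, and the MKO and Control ranges overlapped. Means were 40.9 ± 24.4 CPM in EKO, 6.93 ± 2.58 in MKO, 26.1 ± 9.37 in EMdKO and 9.86 ± 1.66 in Control (SD, n = 4 each). The EMdKO mean was below the EKO mean by less than the SD of the EKO group, and the MKO mean was below the Control mean by slightly more than the SD of either.

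Slurp1 had a log2 fold change of 2.05 ± 0.49 in EKO and of 1.41 ± 0.48 in EMdKO, both against Control. The value in MKO against Control was -0.51 ± 0.49. EMdKO skin differed from MKO skin by 1.91 ± 0.50 and from EKO skin by -0.65 ± 0.47. For EKO mice 2 to 4 alone, the difference was 2.41 ± 0.32, and the 3 remaining EKO mice averaged 52.3 ± 10.3 CPM (SD, n = 3), 5.31 times the Control mean. All 3 were then above every EMdKO mouse, but the share of all genes that do so was not computed. EMdKO then differed from EKO by -1.0 ± 0.31, and the group means by more than the SD of either group in CPM.

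In whole skin, more keratinocytes of a kind and more RNA per cell cannot be told apart. The fold of Slurp2 was the larger one in both Krt14Cre groups, which the ratio of the 2 genes' counts within a library shows without any scaling. That ratio, Slurp2 over Slurp1, was 1.95, 5.28, 4.69 and 5.33 in EKO mice 1 to 4 and 0.227, 1.12, 1.60 and 2.09 in MKO mice. It was 6.08, 3.10, 9.08 and 3.72 in EMdKO mice, against 2.38, 0.976, 1.66 and 1.2 in Control mice. The ratios of all EMdKO mice and of EKO mice 2 to 4 were above every Control and MKO ratio, with EKO mouse 1 again inside the Control range. The ratio depends on how well each amplicon amplified, so only its differences between libraries are read.

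**Figure D1:**
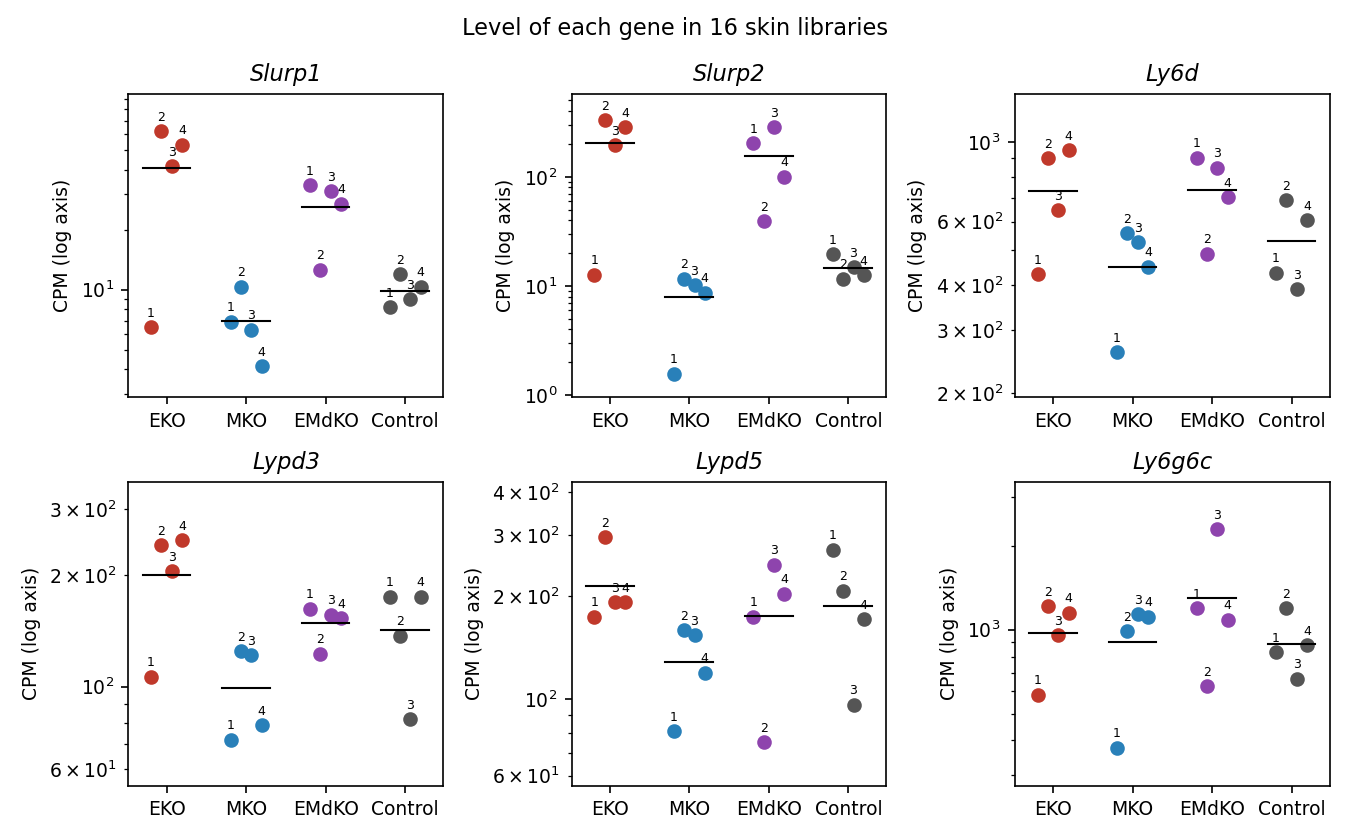
Level of each of the 6 genes in every library, in CPM on a log axis, by group; the small figures number the mice and the bars are group means (n = 4 each). Slurp1 and Slurp2 are high in EKO mice 2 to 4 and in the EMdKO mice, EKO mouse 1 lies near or below the Control mice, and each group of the other 4 genes overlaps the Control range.

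Ly6d varied much less between groups. It had 429, 902, 645 and 946 CPM in EKO mice 1 to 4, and 260.1, 557, 526 and 449.9 CPM in MKO mice. In EMdKO mice it had 902, 488, 848 and 700.4 CPM, against 433, 689, 390.0 and 605 CPM in Control mice. Each group overlapped the Control range, and 2 EKO and 3 EMdKO mice were above the highest Control mouse. The log2 fold change was 0.47 ± 0.29 in EKO and 0.47 ± 0.29 in EMdKO, both against Control, and -0.24 ± 0.29 in MKO against Control. EMdKO skin stood 0.71 ± 0.30 above MKO skin and 0.01 ± 0.29 above EKO skin. With EKO mouse 1 left out, the EKO difference from Control was 0.65 ± 0.29 and the EMdKO difference from EKO -0.18 ± 0.29. Group means were 731 ± 241 CPM in EKO, 448 ± 133 in MKO, 735 ± 185 in EMdKO and 529 ± 141 in Control (SD, n = 4 each). In the order EMdKO, EKO, Control and MKO, no mean was apart from the next by more than the SD of both groups.

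Lypd3 had 106, 240.4, 205 and 248 CPM in EKO mice 1 to 4, and 72.0, 124, 121 and 78.8 CPM in MKO mice. It had 162, 122, 156 and 153 CPM in EMdKO mice, against 175, 137, 81.8 and 174 CPM in Control mice. EKO mice 2 to 4 were above every other library, but the share of all genes that do so was not computed. The EMdKO, MKO and Control ranges overlapped. The log2 fold change was 0.49 ± 0.28 in EKO against Control, 0.70 ± 0.25 without EKO mouse 1, and -0.52 ± 0.28 in MKO against Control. It was 0.06 ± 0.28 in EMdKO against Control, 0.58 ± 0.28 in EMdKO against MKO and -0.43 ± 0.28 in EMdKO against EKO, or -0.64 ± 0.25 without EKO mouse 1. The EMdKO and Control means, 148 ± 17.7 and 142 ± 43.9 CPM (SD, n = 4 each), were within 1 SD of each other.

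Lypd5 had 174, 297, 191 and 192 CPM in EKO mice 1 to 4, and 80.7, 159, 154 and 120 CPM in MKO mice. It had 174, 75.1, 247 and 203 CPM in EMdKO mice, against 273, 207, 96.5 and 171 CPM in Control mice. Every EKO library was above every MKO library, as was also so for Slurp2, but the share of all genes that do so was not computed. All other pairs of groups overlapped. The log2 fold changes against Control were 0.19 ± 0.34 in EKO, -0.54 ± 0.35 in MKO and -0.10 ± 0.34 in EMdKO. EMdKO skin differed by 0.45 ± 0.34 from MKO skin and by -0.29 ± 0.34 from EKO skin. For EKO mice 2 to 4 alone, EKO differed from Control by 0.28 ± 0.37 and EMdKO from EKO by -0.37 ± 0.37. Group means were 213 ± 56.1 CPM in EKO, 128 ± 36.2 in MKO, 175 ± 72.8 in EMdKO and 187 ± 73.5 in Control (SD, n = 4 each), and the EMdKO and Control means were the closest of these.

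Ly6g6c had 585, 1214, 955 and 1151 CPM in EKO mice 1 to 4, and 377, 985, 1136 and 1113 CPM in MKO mice. It had 1196, 628, 2295 and 1086 CPM in EMdKO mice, against 828, 1192, 666 and 879.5 CPM in Control mice. The ranges of all groups overlapped, and the EMdKO group held the highest library, mouse 3. The log2 fold changes against Control were 0.13 ± 0.38 in EKO, 0.02 ± 0.38 in MKO and 0.55 ± 0.38 in EMdKO. EMdKO skin differed by 0.53 ± 0.38 from MKO skin and by 0.41 ± 0.38 from EKO skin. With EMdKO mouse 3 left out, the EMdKO differences were 0.12 ± 0.36 from Control, 0.10 ± 0.36 from MKO and -0.01 ± 0.36 from EKO, so all 3 rest on this library. With EKO mouse 1 left out, EKO differed from Control by 0.31 ± 0.40 and EMdKO from EKO by 0.23 ± 0.40.

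**Figure D2:**
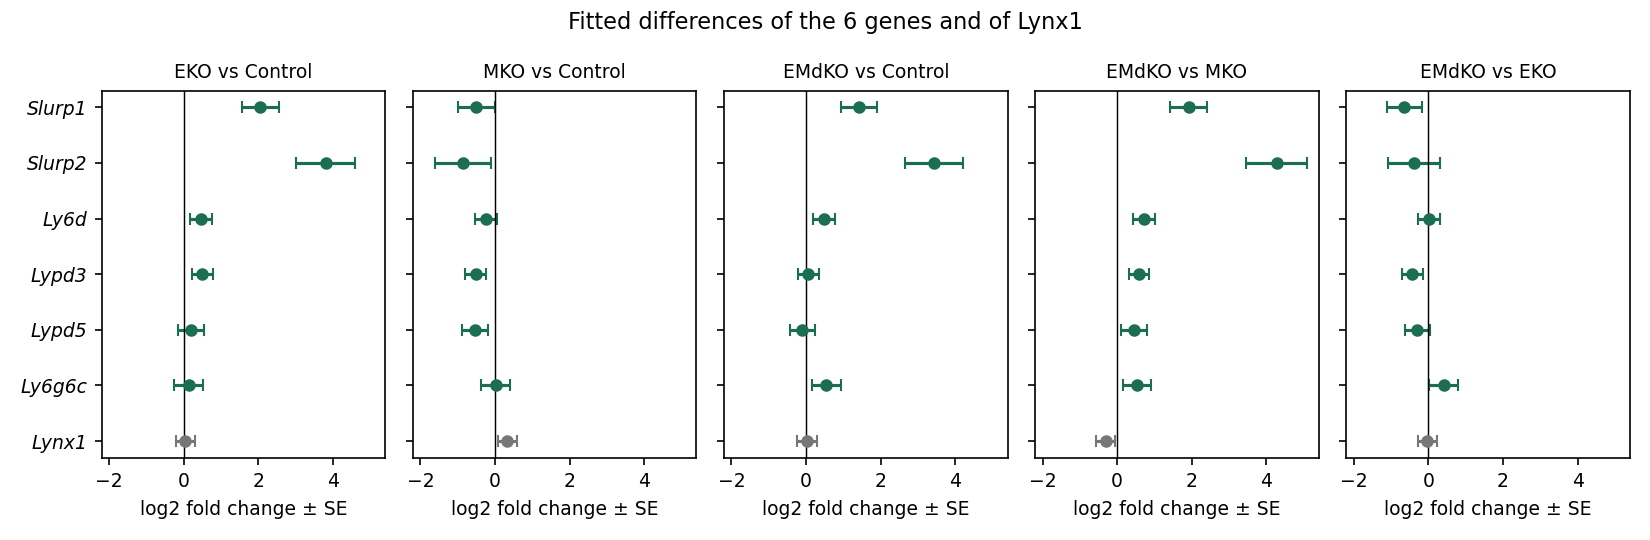
Fitted log2 fold change of the 6 genes and of Lynx1, another Ly6 gene, with 1 standard error on either side, in each of the 5 comparisons (4 mice a group). Slurp2 and Slurp1 stand to the right of 0 in EKO against Control, EMdKO against Control and EMdKO against MKO, and near 0 or left of it in the other comparisons; Lynx1 stays within 0.33 of 0 throughout.

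Over the 6 genes, the median log2 fold change was 0.48 in EKO, -0.51 in MKO and 0.51 in EMdKO, each against Control, beside -0.03, 0.00 and -0.02 over all 13633 genes tested. It was 0.65 in EMdKO against MKO, beside -0.01 over all genes, and -0.34 in EMdKO against EKO, beside 0.00. Without EKO mouse 1 the EKO median against Control was 0.68 and that of EMdKO against EKO -0.51. The first 3 comparisons share the Control libraries. In EKO against Control 6 of the 6 values were above 0, in MKO 1, in EMdKO 5, in EMdKO against MKO 6 and in EMdKO against EKO 2. Among all genes 45.8, 50.2, 47.1, 48.1 and 50.3% were above 0 in these 5 comparisons.

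By edgeR's quasi-likelihood test at a Benjamini-Hochberg adjusted p under 0.05, 0 of the 6 genes were called in any of the 5 comparisons. At an unadjusted p under 0.05 the counts were 2, 0, 2, 3 and 0, in the order EKO, MKO and EMdKO against Control, EMdKO against MKO and EMdKO against EKO. Of all genes, 6.9, 9.58, 8.16, 7.42 and 6.59% passed that unadjusted threshold in the same order. At the adjusted threshold edgeR called 0% of all genes in EKO against Control, 0.0293% in MKO against Control, 0.0293% in EMdKO against Control, 0.00734% in EMdKO against MKO and 0.0147% in EMdKO against EKO. DESeq2 called 2, 0, 1, 2 and 0 of the 6 in that order, Slurp1 and Slurp2 where there were 2 and Slurp2 where there was 1. It called 0.375, 0.771, 0.536, 1.04 and 0.0661% of all genes. limma-voom with sample quality weights called 0 of the 6 in any comparison and 0.0293, 0, 0.0587, 0.0587 and 0.0147% of all genes. Since the 6 were chosen on these libraries, nothing is read from their counts.

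Without EKO mouse 1, edgeR called Slurp1 and Slurp2 in EKO against Control, where 0.923% of all genes were called. In EMdKO against Control it called Slurp2, with 0.291% of all genes, and in EMdKO against MKO it called both, with 0.691%. The last 2 comparisons do not contain that library, which enters the fit over all 16, and their fold changes were the same to 2 decimals. The standard error of Slurp2 in EMdKO against Control was then 0.55, against 0.78 with all libraries. In EMdKO against MKO, Slurp2 was also called with no filter on low counts, beside 0.0438% of all genes, and both genes with only those groups in the fit, beside 0.686%. In terms of ranges, 0 of the 6 genes had every EKO mouse above every Control mouse, as 1.03% of all genes did. Without EKO mouse 1 there were 3, namely Slurp1, Slurp2 and Lypd3, beside 5.66% of all genes. Slurp2 alone had every MKO mouse below every Control mouse, beside 1.71% of all genes. Slurp1 and Slurp2 had every EMdKO mouse above every Control mouse, beside 2.23%, and above every MKO mouse, beside 3.71%.

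The 6 genes lie in 3 places of the mouse genome. In the GENCODE annotation of GRCm38, Slurp1 spans chr15:74724318-74728034, Slurp2 chr15:74742764-74746693 and Ly6d chr15:74762056-74763620, all on the minus strand. Lypd5 spans chr7:24349196-24355109 and Lypd3 chr7:24636550-24641118 on the plus strand, 281.0 kb apart, and Ly6g6c spans chr17:35065388-35070050 on the plus strand. The count files name transcripts and no build, so these positions come from the annotation alone. All 6 are protein-coding. Slurp1 is overlapped over 322 bases by Them6, Lypd3 over 1367 bases by the antisense transcript Gm26550, and Ly6g6c over 797 bases by Mpig6b, each on the opposite strand. Whether counting used strand was not given in the sources used here, so reads of such a pair may not be separable.

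On chromosome 15 the nearest neighbours of the Slurp genes had group means that lay close together. Lynx1, a Ly6 gene whose product binds nicotinic receptors, lies between Slurp2 and Ly6d, 1158 bases from Slurp2. Lynx1 averaged 224 ± 61.7 CPM in EKO, 273 ± 86.3 in MKO, 221 ± 36.0 in EMdKO and 217 ± 58.6 in Control (SD, n = 4 each). By edgeR's quasi-likelihood test its log2 fold change was 0.04 ± 0.26 in EKO against Control (adjusted p = 0.981) and 0.02 ± 0.26 in EMdKO against Control (adjusted p = 0.995). Lypd2, which lies between Slurp1 and Slurp2, averaged 1.39 CPM in EKO, 1.25 in MKO, 0.969 in EMdKO and 1.21 in Control. Them6, at the end of Slurp1, averaged 6.05 CPM in EKO, 6.1 in MKO, 5.81 in EMdKO and 5.52 in Control. Psca, an epithelial surface Ly6 gene beyond Them6, differed more, at 4.69 CPM in EKO, 1.76 in MKO, 5.77 in EMdKO and 2.55 in Control, with a log2 fold change of 1.71 ± 0.66 in EMdKO against MKO (edgeR adjusted p = 0.513). None of these 4 neighbours passed the test in any of the 5 comparisons.

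**Figure D3:**
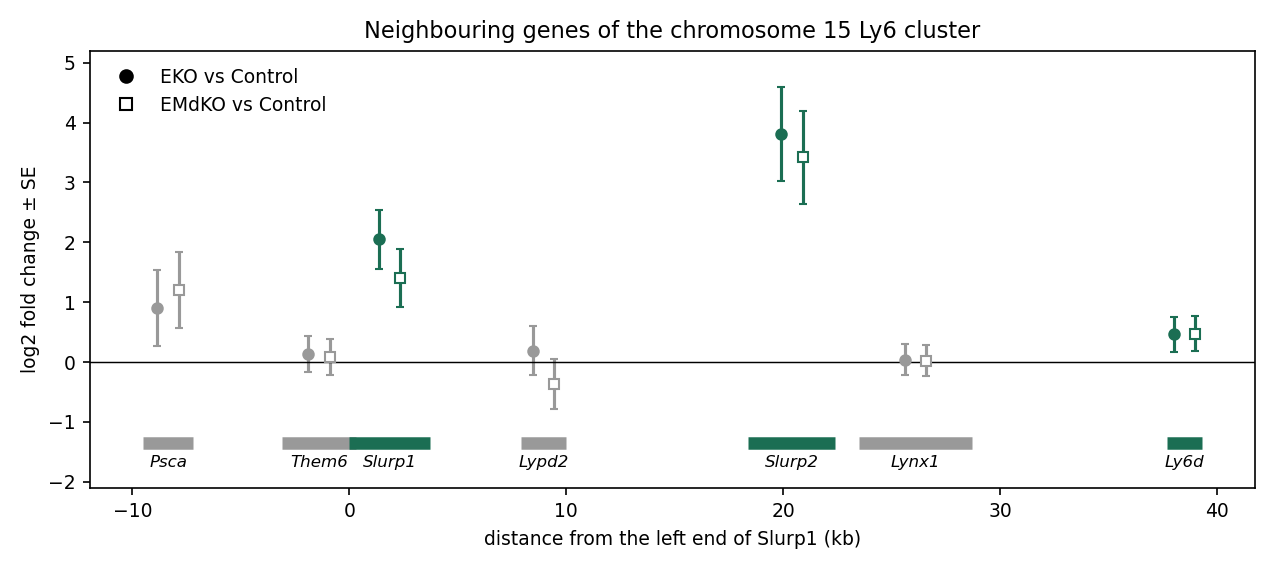
Fitted log2 fold change, with 1 standard error on either side, of 7 neighbouring genes on chromosome 15, against distance in kb from the left end of Slurp1; circles are EKO against Control, squares EMdKO against Control, and thick lines mark the genes. Slurp1, Slurp2 and Ly6d are in green; Lynx1, Lypd2 and Them6, which lie beside the Slurp genes, are near 0.

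Promoter sequences were at hand for Lypd3, Lypd5 and Ly6g6c, in a table of RefSeq starts on GRCm38.p6; Slurp1, Slurp2 and Ly6d are named only. Each runs 250 bases before to 50 bases after the start, 5′ to 3′ on the plus strand, at chr7:24636320-24636619 for Lypd3, chr7:24348946-24349245 for Lypd5 and chr17:35067075-35067374 for Ly6g6c. They are shown so that the start regions of the 3 genes can be set side by side. The windows of Lypd3 and Lypd5 include the start of the GENCODE span given above, while that of Ly6g6c lies wholly inside its span. Capitals mark matches to any of 9 motifs, searched on both strands.
Lypd3: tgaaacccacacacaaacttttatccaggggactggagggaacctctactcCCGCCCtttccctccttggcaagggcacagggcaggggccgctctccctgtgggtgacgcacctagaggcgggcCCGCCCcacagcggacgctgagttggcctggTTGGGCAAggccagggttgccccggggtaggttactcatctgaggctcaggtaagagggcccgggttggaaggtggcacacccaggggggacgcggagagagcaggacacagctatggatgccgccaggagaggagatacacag
Lypd5: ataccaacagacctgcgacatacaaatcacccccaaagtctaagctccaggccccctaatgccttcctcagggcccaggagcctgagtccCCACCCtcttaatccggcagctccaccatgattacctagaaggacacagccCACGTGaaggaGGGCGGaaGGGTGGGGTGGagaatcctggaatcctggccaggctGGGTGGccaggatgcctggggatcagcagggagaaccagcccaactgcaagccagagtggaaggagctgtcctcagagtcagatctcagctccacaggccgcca
Ly6g6c: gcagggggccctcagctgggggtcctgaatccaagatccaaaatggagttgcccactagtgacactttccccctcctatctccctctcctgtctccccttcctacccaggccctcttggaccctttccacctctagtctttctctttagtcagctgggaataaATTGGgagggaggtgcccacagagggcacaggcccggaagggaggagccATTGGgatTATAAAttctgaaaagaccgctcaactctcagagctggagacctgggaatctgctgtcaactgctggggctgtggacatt

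The Ly6g6c start carried a TATA box (TATAAA) 30 bases before the start site, with CCAAT boxes (CCAAT) 38 and 87 bases before it. Among 32851 mouse promoters of that length, 13.6% held TATAAA and 37.4% held CCAAT. The Lypd3 start had no TATAAA and held 2 GC boxes (GGGCGG) and 1 C/EBP motif (TTGCNNAA), which occur in 35.7 and 10.8% of promoters. The Lypd5 start held 1 E-box (CACGTG), 1 GC box and 4 CACC boxes (CCACCC), of which the last occurs in 31.5% of promoters and the E-box in 7.15%. In capitals, the adjoining CACC boxes of Lypd5 run on as 1 stretch. The other motifs searched were an AP-1 motif (TGANTCA, in 7.81% of promoters), a STAT motif (TTCNNNGAA, 8.30%) and an NF-kB motif (named only, 0.411%), and these 3 windows did not contain those letters. Such matches describe the letters and are not evidence of binding.

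Among the relatives of the 6 genes, 33 of 38 listed had a target and 15 passed the filter on low counts. edgeR called 0 of these 15 in any of the 5 comparisons, and at an unadjusted p under 0.05 the number was 1, 3, 0, 2 and 0, beside 6.9, 9.58, 8.16, 7.42 and 6.59% of all genes. Their median log2 fold change was 0.00, -0.28 and -0.12 in EKO, MKO and EMdKO against Control. Ly6f, Ly6g5c, Lypd9, Lypd10 and Lypd11 had 0 counts in every library. The relatives with the highest mean CPM were Ly6e, Lynx1, Ly6a, Pinlyp, Cd59a and Ly6m. Ly6e, a widely expressed interferon-induced gene, averaged 832 ± 105 CPM in EKO, 756 ± 97.7 in MKO, 868 ± 433 in EMdKO and 833 ± 259.8 in Control. Ly6a, which encodes the stem and progenitor antigen Sca-1, averaged 198 ± 38.8 CPM in EKO, 201 ± 40.4 in MKO, 180.1 ± 46.8 in EMdKO and 244 ± 68.0 in Control. Cd59a, a complement inhibitor, averaged 31.2 ± 10.48 CPM in EKO, 51.1 ± 15.01 in MKO, 39.6 ± 9.26 in EMdKO and 32.8 ± 7.29 in Control. Ly6m averaged 35.8 ± 9.53 CPM in EKO, 31.5 ± 6.54 in MKO, 34.2 ± 8.42 in EMdKO and 26.9 ± 13.7 in Control (SD, n = 4 each). Of the differences of these 4 genes from Control, only that of Cd59a in MKO was larger than the SD of both groups.

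Pinlyp and Ly6g6d were high in the library with the most hair shaft RNA. Pinlyp, a phospholipase inhibitor, ranged between 9.85 and 83.9 CPM in EKO, 2.03 and 6.27 in MKO, 3.03 and 189 in EMdKO, and 2.50 and 376 in Control. Ly6g6d, the neighbour of Ly6g6c at a distance of 1.39 kb, averaged 6.46, 0.126, 4.11 and 28.9 CPM in EKO, MKO, EMdKO and Control and reached 88.4 CPM. Both were highest in Control mouse 1, which also had the highest summed level of the 17 hair shaft markers, 41725 CPM. Summed hair shaft markers ranged from 78.6 to 7949 CPM in EKO, 13.6 to 640 in MKO, 22.7 to 8551 in EMdKO and 32.1 to 41725 in Control. The 17 markers had median log2 fold changes of -2.04, -6.58 and -3.26 in EKO, MKO and EMdKO against Control, all 17 below 0 in each. By edgeR 1, 16 and 4 of them had an unadjusted p under 0.05, beside 6.9, 9.58 and 8.16% of all genes, and 0 were called. Their part in the differences was not tested.

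Many genes for the receptors through which SLURP proteins act were near the limit of detection. Of 16 nicotinic receptor subunit genes 8 passed the filter, 0 were called by edgeR in any comparison, and Chrna6 and Chrnb3 had 0 counts in every library. The summed level of the 16 was 24.3 to 41.1 CPM in EKO, 24.1 to 39.2 in MKO, 20.0 to 25.6 in EMdKO and 29.2 to 39.0 in Control. Chrna7, the alpha 7 subunit that SLURP1 is known to modulate, averaged 1.41 CPM in EKO, 1.5 in MKO, 1.37 in EMdKO and 1.45 in Control. Chrna3 and Chrna9, subunits linked to SLURP2, did not pass the filter and averaged at most 0.97 and 0.212 CPM in any group. These 3 were named for their role after their values had been seen. Median log2 fold changes of the 8 tested subunits were -0.03, 0.12 and -0.23 in EKO, MKO and EMdKO against Control. By edgeR 0, 2 and 1 of the 8 had an unadjusted p under 0.05, all of them lower than in Control, beside 6.9, 9.58 and 8.16% of all genes.

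Genes that make, move or degrade acetylcholine were likewise not called. Of 8 such genes 5 were tested, with median log2 fold changes of -0.16, 0.20 and -0.13 in EKO, MKO and EMdKO against Control. By edgeR 0, 1 and 0 of the 5 had an unadjusted p under 0.05, the 1 being lower, beside 6.9, 9.58 and 8.16% of all genes. Chat, which makes acetylcholine and was named for that role, averaged 2.73 CPM in EKO, 4.77 in MKO, 3.24 in EMdKO and 2.40 in Control. For the uPA system, the protease pathway of the family's founding receptor, 9 of 11 genes were tested and 0 called. Its median log2 fold changes were -0.30, -0.01 and -0.20 in EKO, MKO and EMdKO against Control. By edgeR 2, 1 and 3 of the 9 had an unadjusted p under 0.05, all of them lower than in Control, beside 6.9, 9.58 and 8.16% of all genes. The receptor Plaur averaged 17.2 CPM in EKO, 17.3 in MKO, 17.6 in EMdKO and 24.6 in Control. Genes that build the GPI anchor differed little, with 22 of 24 tested, 0 called and medians of 0.00 in EKO, -0.15 in MKO and -0.08 in EMdKO against Control.

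Markers of the upper epidermis were higher in most of the libraries in which the Slurp genes were high. The 21 tested suprabasal and cornified layer genes had a median log2 fold change of 0.60 in EKO, -0.28 in MKO and 0.48 in EMdKO against Control, with 6, 2 and 2 at an unadjusted p under 0.05, beside 6.9, 9.58 and 8.16% of all genes, and 0 called by edgeR. Their mean log2 CPM ranged from 7.58 to 9.11 in EKO, 7.21 to 7.87 in MKO, 7.71 to 8.78 in EMdKO and 7.64 to 8.23 in Control. In EKO mice 2 to 4 the range was 8.88 to 9.11, and with those 3 edgeR called Asprv1, Hrnr and Krt1 higher in EKO than in Control. For 9 stress keratinocyte genes, the mean log2 CPM ranged from 2.37 to 7.39 in EKO, 2.00 to 2.98 in MKO, 4.02 to 5.27 in EMdKO and 2.53 to 5.01 in Control. Their median log2 fold change was 2.75, -1.07 and 0.065 in EKO, MKO and EMdKO against Control. In EMdKO against Control 5 of the 9 were above 0 and 4 below. Of those 9, 5 were called higher in EKO than in Control once EKO mouse 1 was left out, namely the IL-36 genes Il1f6, Il1f8 and Il1f9, the defensin Defb14 and S100a9. That fit also called Il1f6, Il1f8, Il1f9, Defb14 and the cornified gene Hrnr higher in EMdKO, both against Control and against MKO. It called 0.923% of all genes in EKO against Control, 0.291% in EMdKO against Control and 0.691% in EMdKO against MKO. The 10 basal keratinocyte genes differed less, with medians of 0.04, 0.06 and 0.32 in EKO, MKO and EMdKO against Control and 0 called with all libraries. Krt14 was called higher in EKO than in Control when EKO mouse 1 was left out.

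**Figure D4:**
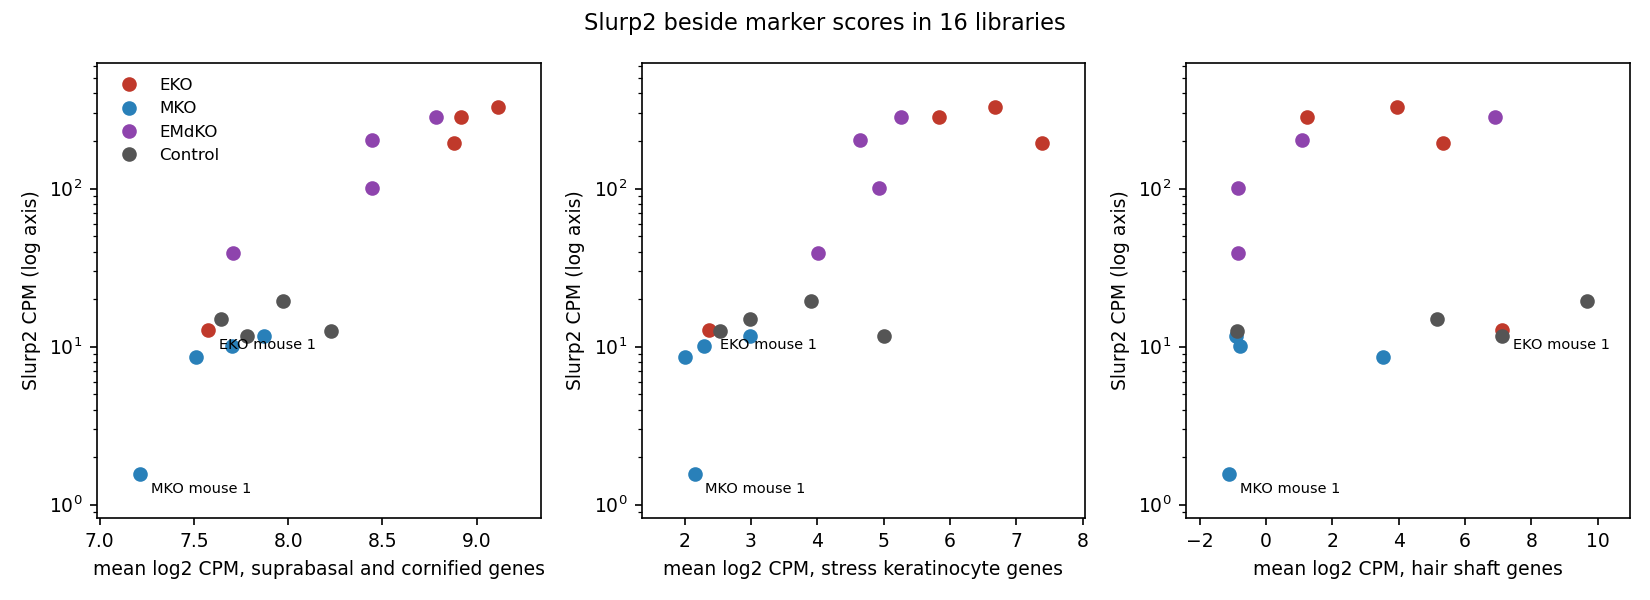
Slurp2 in CPM on a log axis in 16 libraries against the mean log2 CPM of 3 marker lists (suprabasal and cornified, stress keratinocyte, hair shaft); colours mark the groups. The EMdKO mice and EKO mice 2 to 4 are high in Slurp2 and mostly in the first list. In the stress list EKO mice 2 to 4 are highest and the EMdKO range overlaps the Control range. EKO mouse 1 sits with the Control mice, MKO mouse 1 is lowest in Slurp2, and the hair shaft list is spread within each group.

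Levels were also taken relative to the suprabasal and cornified list, as the gene's log2 CPM less the list's mean. Slurp2 stood at -1.67 ± 1.5 in EKO, -4.84 ± 1.02 in MKO, -1.40 ± 0.85 in EMdKO and -4.04 ± 0.42 in Control (SD, n = 4 each). In EKO mice 2 to 4 the value was -0.93 ± 0.30 (n = 3). Slurp1 stood at -3.66 ± 0.79 in EKO, -4.81 ± 0.47 in MKO, -3.72 ± 0.27 in EMdKO and -4.59 ± 0.34 in Control, with an EKO value of -3.27 ± 0.19 without mouse 1. Both genes were higher in EMdKO than in Control on this relative scale, with ranges apart. The share of all genes with such a separation was not computed, so nothing is read from it. For Ly6d the relative level was 0.82 ± 0.31 in EKO, 1.2 ± 0.25 in MKO, 1.14 ± 0.20 in EMdKO and 1.10 ± 0.37 in Control, and it was not above Control in EKO. Lypd3, at -1.05 ± 0.18 in EKO and -1.14 ± 0.30 in EMdKO, was below its Control value of -0.82 ± 0.33 by less than the Control SD. Lypd5 stood at -0.92 ± 0.56 in EKO, -0.62 ± 0.19 in MKO, -1.02 ± 0.31 in EMdKO and -0.45 ± 0.56 in Control. In EKO mice 2 to 4 alone it stood at -1.18 ± 0.24. Its EMdKO value was below Control by about the Control SD, with overlapping ranges. Ly6g6c was lowest in EKO, at 1.25 ± 0.26, with 2.12 ± 0.56 in MKO, 1.85 ± 0.36 in EMdKO and 1.86 ± 0.39 in Control. Without EKO mouse 1 the EKO values of Ly6d, Lypd3 and Ly6g6c were 0.71 ± 0.26, -1.12 ± 0.14 and 1.13 ± 0.12 (n = 3).

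Other cell types were present in every library. Summed markers of skeletal muscle, from the layer beneath the skin, ranged from 25872 to 57807 CPM in EKO, 36223 to 105341 in MKO, 21392 to 54203 in EMdKO and 23551 to 45510 in Control. MKO mouse 1, the lowest library of Slurp2, Ly6d, Lypd3 and Ly6g6c, had the highest muscle sum of all. EKO mouse 1 and EMdKO mouse 2 had the highest muscle sums of their groups, 57807 and 54203 CPM. Each was the lowest of its group in all 6 genes. Control mouse 4, the highest Control library at 45510 CPM, was not the lowest Control mouse in any of the 6. Sebaceous gland markers had median log2 fold changes of 0.67, -0.53 and 1.05 in EKO, MKO and EMdKO against Control, and 0 of 9 were called with all libraries. With EKO mouse 1 left out, Awat1 was called higher in EKO than in Control, and Awat1, Elovl3, Fa2h, Far2 and Soat1, genes of lipid synthesis, higher in EMdKO than in MKO. Macrophage and fibroblast lists had medians within 0.33 of 0 in the comparisons with Control, and 0 of their 7 and 6 tested genes were called. Without EKO mouse 1, edgeR still called 0 of the relatives, nicotinic receptor, acetylcholine, uPA system, GPI anchor, hair shaft, muscle, macrophage and fibroblast genes in any comparison. The part of cell content in the levels of the 6 genes was not tested.

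The genes most like each member over the 16 libraries were found by Pearson correlation of log2 CPM, with no p, since libraries share their composition and scaling. For Slurp2 these were Chga, a granule protein of neuroendocrine cells (r = 0.956), Kif26b (r = 0.953) and Slc37a2 (r = 0.948). Chga averaged 11.3 CPM in EKO, 0.539 in MKO, 7.15 in EMdKO and 1.28 in Control. For Slurp1 they were Hrnr, a cornified envelope protein (r = 0.958), Il1f8, the IL-36 beta gene (r = 0.958), and Abhd12b (r = 0.952). Abhd12b averaged 27.2 CPM in EKO, 3.44 in MKO, 19.4 in EMdKO and 5.29 in Control, in the same pattern as Slurp1. For Ly6d they were Mal2, Them5 and Cpa4, with r between 0.911 and 0.941. For Lypd3 they included the kinase gene Mapk13 (r = 0.965) and Dhrs1 (r = 0.925), and for Lypd5 they were Reep4 (r = 0.923), Mark4 and the tight junction gene Cldn1. For Ly6g6c they were Vsnl1, Mfsd6 and Slc22a18, with r between 0.896 and 0.908. Taken as deviations from group means, the r of these pairs lay between 0.835 and 0.957.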

How the data were processed

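Whole skin of 16 mice, 4 in each of 4 groups given by the labels, was measured with the Ion AmpliSeq Transcriptome Mouse Gene Expression Kit using total RNA from tissue frozen in liquid nitrogen, per the labels' protocols. Values as deposited are raw read counts, 1 for each targeted transcript. The submitters' processing notes name HTSeq 0.6.0 and DESeq2 1.18.1. The aligner, build and annotation are not given in the sources used here. The 5 HTSeq summary lines, 3.111 to 5.252% of the counts, were left out. Depth was 6962474 to 12086327 counts, so precision is set by the mice for all but the lowest values.

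The targets were matched to symbols through RefSeq and GENCODE tables, 22562 of 23930. Counts were fitted with edgeR 4.0.16 in R 4.3.3 (TMM scaling, the default expression filter, quasi-likelihood test, 1 mean per group, all 16 libraries), with 13633 genes, 12 residual degrees of freedom and a biological coefficient of variation of 0.31. The 5 comparisons were each knockout against Control, and EMdKO against MKO and EKO, and an adjusted p under 0.05 (Benjamini-Hochberg over all genes) was a call. CPM used the TMM-scaled totals, and log2 CPM a prior count of 2. The fit was run on simulated data with a smaller dispersion than the common dispersion of these data, 0.0964, so its power here was not tested. The 2 most similar libraries still differed beyond sampling noise (chi-square of 14.43 per degree of freedom), so none was a copy.

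The 6 genes and all gene lists were chosen with earlier results of these data known. The text names all 6 genes, every gene of a list that was called, the 6 relatives with the highest mean CPM, the 3 genes most correlated with each of the 6, Zc3h12a and genomic neighbours. One of the genes most like Lypd3 is not reported here. Alternatives were DESeq2 1.42.0, limma-voom (limma 3.58.1), DESeq2-type size factors in edgeR, no filter, a replicate block, only the groups compared, and each library left out. Python 3.11.15 was used for tables and figures.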

Additional observations from a re-analysis of the deposited data

Results flagged for a closer look

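In the EKO group Slurp2 was lowest in mouse 1, with a log2 CPM of 3.69, and its gap to the other 3 mice, taken over the range of the group, passed Dixon's 95% limit for 4 samples. The same limit was passed by MKO mouse 1 for Slurp2, with a log2 CPM of 0.84, and for Ly6g6c, with a log2 CPM of 8.56. Lypd5 in EKO mouse 2 passed it as the highest of its group on the CPM scale, at 297 CPM. These 4 are from 24 combinations of gene and group on each of 2 scales, and chance passes the limit in about 1 of 20 groups. EKO mouse 1 was also low in Krt1 and Il1f6, and MKO mouse 1 had the highest skeletal muscle sum, 105341 CPM. The part of these in the levels was not tested.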

How the results depend on the processing

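The 5 medians over the 6 genes, and each gene's own fold change, moved by less than the spread between mice under every alternative run, in 110 and 660 recomputed values. The count of the 6 genes called was 0 with edgeR and moved in 8 of 110 recomputed values. With DESeq2 it was 2 in EKO against Control, 1 in EMdKO against Control and 2 in EMdKO against MKO. In EMdKO against MKO it was 1 (Slurp2) with no filter, where 0.0438% of all genes were called, and 2 with only the groups compared, where 0.686% were. With each library left out in turn it ranged from 0 to 2 in EKO against Control, 0 to 1 in EMdKO against Control and 0 to 2 in EMdKO against MKO, and the higher values came without EKO mouse 1. Of the 15 tested relatives DESeq2 called 1, Pinlyp, in MKO against Control, and no other alternative called any. The cause of these moves was not tested.

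With mouse number as a replicate block, 0 of the 6 genes and 0 relatives were called in each of the 5 comparisons, and the medians were 0.45, -0.52, 0.52, 0.70 and -0.26. The labels do not say that a number pairs mice, and only 5 of 20 same-numbered pairs had deviations correlated over 0.1 (range -0.54 to 0.61), with 5 of 16 libraries closest to their own number.

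Some fitted values changed sign under an alternative: Ly6d in EMdKO against EKO, Ly6g6c in MKO against Control, Lypd5 in EKO and in EMdKO against Control, Ly6d in MKO against Control and Lypd3 in EMdKO against Control. Ly6g6c in EMdKO against EKO, 0.41, was -0.01 without EMdKO mouse 3. Depth limits Slurp2 in MKO mouse 1, with 10 counts, and the nicotinic subunits.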
